A study of Homo sapiens with 9 samples.

Results

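Oxidative phosphorylation genes were described here by what their transcripts did in oncogene-induced senescence and after knockdown of ARID1B. The genes were taken by symbol, as those whose names mark them as nuclear-encoded subunits of the respiratory complexes or of ATP synthase, with CYC1 and CYCS added and the NDUFAF assembly factors left out. This gave 83 genes of 18417 measured, or 90 of 19460 probe sets with a single gene symbol. Of the 83, 80 were protein-coding (33 of complex I, 3 of complex II, 8 of complex III, 17 of complex IV, 18 of complex V and CYCS), and 3 carried matching names without being subunits: the divergent transcript NDUFV1-DT and the pseudogenes UQCRBP1 and ATP5F1EP2. The subunits SDHB and UQCRFS1 were not analysed here, and none of the 13 subunits encoded in mitochondrial DNA had a measured gene symbol.

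The cells were IMR90 ER:RAS, human lung fibroblasts that carry oncogenic RAS fused to the oestrogen receptor's hormone-binding part, so that 4-hydroxytamoxifen (4OHT) switches RAS on. All 3 groups carried the fusion. Knockdown cells held a short hairpin RNA against ARID1B and received 100 nM 4OHT (shARID1B+4OHT), senescent cells held the empty vector and received 4OHT (vector+4OHT), and non-senescent cells held the empty vector without 4OHT (vector-4OHT), with 3 arrays in each. The labels give 6 days after 4OHT for every group and do not name the hairpin. No group held a control hairpin, or the ARID1B hairpin without 4OHT. The study calls the arrays biological replicates, while neither it nor the labels say how the cultures were kept apart, and the p-values measure the spread between these samples.

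Oxidative phosphorylation passes electrons from NADH (complex I) and succinate (complex II) through coenzyme Q to complex III, by cytochrome c to complex IV and on to oxygen, and ATP synthase (complex V) uses the proton gradient that this builds. Most subunits are encoded in the nucleus and imported, while a small core is encoded in mitochondrial DNA. In fibroblasts, senescence driven by RAS is known for altered mitochondrial respiration and raised reactive oxygen species. Arrays measure transcripts and say nothing of assembled complexes or of respiration.

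Before the values, the stretches upstream of 5 members on which the results turn are shown, because nuclear respiratory genes are known for sites of a few shared factors. The letters are 250 bases up to the start site as RefSeq gives it (build GRCh38.p14), 5′ to 3′. Capitals mark CCGGAAG, the core bound by ETS factors such as GABPA, on either strand. COX5B, COX6B1 and COX8A fell after knockdown, NDUFS3 and NDUFA9 rose.
COX5B, chr2:97645812-97646061, plus strand: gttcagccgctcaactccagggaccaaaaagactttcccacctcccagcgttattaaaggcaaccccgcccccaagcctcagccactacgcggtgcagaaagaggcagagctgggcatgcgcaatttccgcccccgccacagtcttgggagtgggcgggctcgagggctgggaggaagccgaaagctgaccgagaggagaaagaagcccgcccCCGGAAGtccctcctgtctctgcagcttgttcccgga
COX6B1, chr19:35648073-35648322, plus strand: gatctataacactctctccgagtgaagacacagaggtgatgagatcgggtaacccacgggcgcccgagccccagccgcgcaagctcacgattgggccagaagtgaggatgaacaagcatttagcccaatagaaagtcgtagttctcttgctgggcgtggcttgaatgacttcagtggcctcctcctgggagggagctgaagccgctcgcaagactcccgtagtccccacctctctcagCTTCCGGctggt
COX8A, chr11:63974370-63974619, plus strand: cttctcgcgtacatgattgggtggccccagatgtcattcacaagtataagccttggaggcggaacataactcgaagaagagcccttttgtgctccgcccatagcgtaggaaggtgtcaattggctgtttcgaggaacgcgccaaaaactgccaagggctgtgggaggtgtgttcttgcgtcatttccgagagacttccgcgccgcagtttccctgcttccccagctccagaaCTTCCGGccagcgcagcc
NDUFS3, chr11:47578824-47579073, plus strand: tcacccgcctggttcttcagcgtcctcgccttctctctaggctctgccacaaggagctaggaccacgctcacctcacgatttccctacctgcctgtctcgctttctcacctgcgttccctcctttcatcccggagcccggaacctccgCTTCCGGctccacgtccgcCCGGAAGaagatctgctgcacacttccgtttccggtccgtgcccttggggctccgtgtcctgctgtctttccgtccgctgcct
NDUFA9, chr12:4648864-4649113, plus strand: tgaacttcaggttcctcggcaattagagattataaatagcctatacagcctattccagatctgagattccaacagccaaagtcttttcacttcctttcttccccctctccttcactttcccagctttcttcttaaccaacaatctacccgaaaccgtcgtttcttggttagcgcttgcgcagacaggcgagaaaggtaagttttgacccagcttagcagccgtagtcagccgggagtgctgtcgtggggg
The match began 37 bases before the start in COX5B, 12 before it in COX6B1 and 18 before it in COX8A. NDUFS3 held 2, at 102 and 83 bases, and the NDUFA9 stretch held none. The promoter table had 67 of the 80 protein-coding members, each with 50 further bases after the start. In those windows CCGGAAG stood in 19 of 67 (28.4%), against 10.7% of all 27305 promoters. The NRF1 motif GCGCATGCG stood in 10 (14.9%, against 2.1%), and the YY1 motif AAGATGGCG in 7 (10.4%, against 1.85%). Both strands were searched, and no motif contains another. CCGGAAG was held by 3 of 8 members lower in knockdown (37.5%), 3 of 8 higher (37.5%) and 13 of 51 not called (25.5%). In senescence it was held by 6 of 26 members higher (23.1%), 0 of 1 lower and 13 of 40 not called (32.5%). A match is a description of letters, not of binding.

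ARID1B itself was lower in the knockdown cells. This gene, which codes for a component of SWI/SNF chromatin remodellers, read 8.07, 7.96 and 8.13 in shARID1B+4OHT cells and 8.63, 8.96 and 8.77 in vector+4OHT cells on the log2 scale, a difference of -0.73 (limma adjusted p = 0.000179). All 10 fibroblast markers lay above the median of all probe sets, as did 5 of 8 epithelial markers (KRT8, KRT18, KRT19, KRT14 and CLDN4, but not EPCAM, CDH1 and KRT5), 1 of 6 leukocyte markers (CD68) and 2 of 6 endothelial markers (TEK and CLDN5). The mean of the fibroblast list ran 10.84 to 10.90 in shARID1B+4OHT, 10.79 to 10.86 in vector+4OHT and 11.15 to 11.26 in vector-4OHT arrays, lower in both 4OHT groups, and its part in the results was not tested. The epithelial list ran 7.11 to 7.18 in shARID1B+4OHT, 6.93 to 7.08 in vector+4OHT and 7.16 to 7.18 in vector-4OHT arrays. The leukocyte list ran 6.28 to 6.30 in shARID1B+4OHT, 6.22 to 6.30 in vector+4OHT and 6.23 to 6.25 in vector-4OHT arrays, and the endothelial list 6.27 to 6.32 in shARID1B+4OHT, 6.21 to 6.33 in vector+4OHT and 6.22 to 6.28 in vector-4OHT arrays. The epithelial list was thus lowest in vector+4OHT cells, and its part in the results was not tested. Median log2 values per array ran 6.70 to 6.74 in shARID1B+4OHT, 6.71 to 6.79 in vector+4OHT and 6.77 to 6.79 in vector-4OHT cells. Replicates 2 and 3 of vector+4OHT (6.72 and 6.71) lay below every vector-4OHT array.

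In senescence, subunit transcripts more often rose than fell, and every change was small. Of the 83 genes, 29 were higher in vector+4OHT than in vector-4OHT cells and 3 were lower at an adjusted p under 0.05 (limma, Benjamini-Hochberg over all 18417 genes). That is 34.9% higher and 3.61% lower, beside 14.9% higher and 17.6% lower among all genes tested. Brighter genes are called more often. Among the 11945 genes left when dim ones were removed, 23.3% were higher and 25.7% lower, beside 32 and 3 of the 76 oxidative phosphorylation genes that stayed. The median difference was 0.09 over the members and -0.01 over all genes, on the log2 scale. No member moved 2-fold. Mean member levels were 9.89 to 9.94 on vector+4OHT and 9.79 to 9.86 on vector-4OHT arrays, so that the groups did not overlap.

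The count of 29 fell to 19 without vector-4OHT replicate 2, to 19 without vector-4OHT replicate 3 and to 19 without vector+4OHT replicate 3, and the count of 3 lower fell to 1 without vector-4OHT replicate 1 or 2 or shARID1B+4OHT replicate 1 or 2. Through all 9 removals, 16 of the 29 kept their call: NDUFV2, NDUFS8, NDUFA2, NDUFA3, NDUFA11, NDUFB6, NDUFB9, SDHA, CYC1, UQCRC1, CYCS, COX5B, COX6B1, COX7B, COX8A and ATP5PF. The other 13 lost it in at least 1 removal: NDUFA8, NDUFB1, NDUFB4, NDUFC1, NDUFS4, NDUFS6, NDUFS7, UQCR10, UQCRH, UQCRQ, ATP5F1B, ATP5IF1 and ATP5MC1. Of the 3 lower members, NDUFA9 kept the call, and NDUFB5 and SDHC did not.

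**Figure D1:**
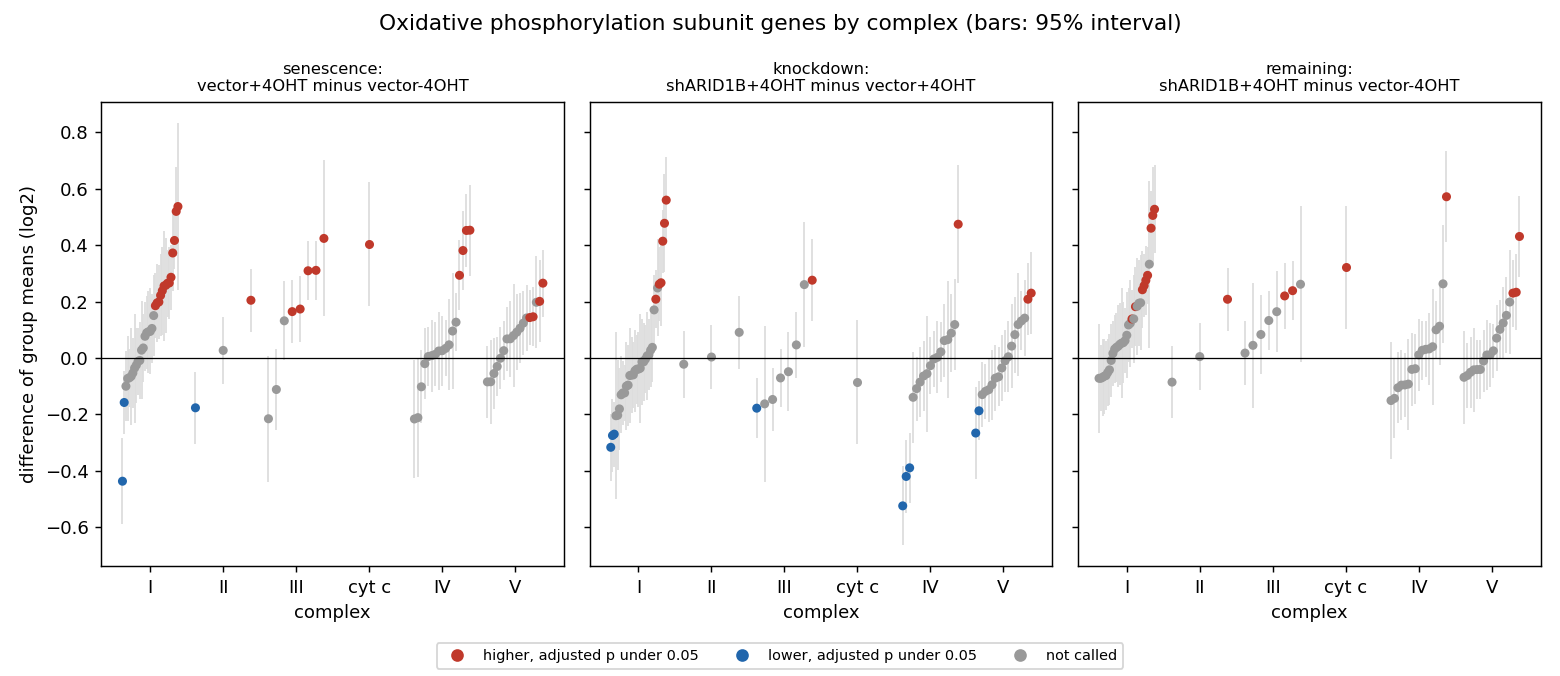
Difference of group means (log2, y axis) for each protein-coding oxidative phosphorylation gene, by complex (x axis), in senescence (vector+4OHT minus vector-4OHT), knockdown (shARID1B+4OHT minus vector+4OHT) and the panel titled remaining (shARID1B+4OHT minus vector-4OHT); bars are 95% intervals and colours mark the call. Complex IV holds the 3 largest falls in knockdown, and 0 members are blue in that last panel.

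Complex I, which takes electrons from NADH, had 14 of 33 members higher and 2 lower (42.4% and 6.06%), beside 14.9% and 17.6% among all genes. Among genes that were not dim, in a separate fit, the shares were 23.3% and 25.7%. The 14 fell to 9 without vector-4OHT replicate 2 or 3 and to 8 without vector+4OHT replicate 3. NDUFV2, an iron-sulfur protein of the NADH-oxidising tip, read 11.86, 11.73 and 11.89 in vector+4OHT cells and 11.45, 11.21 and 11.26 in vector-4OHT cells. The groups stood apart by 0.52 ± 0.071 (SE, n = 3 each; adjusted p = 0.00018), 1.43-fold, and its second probe set gave 0.54. NDUFB9, an accessory subunit of the membrane arm, read 11.14, 11.17 and 11.22 in vector+4OHT cells, against 10.75, 10.76 and 10.77 in vector-4OHT cells, a difference of 0.42 ± 0.045 (adjusted p = 3.53e-05), with little spread inside either group. NDUFA2, an accessory subunit of the matrix arm, was 0.37 higher (adjusted p = 0.000725).

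NDUFB6, also of the membrane arm, had the largest rise of all members, 0.54 ± 0.13 (adjusted p = 0.00948), with a wide spread. Its vector+4OHT arrays read 8.66, 8.84 and 9.01, and its vector-4OHT arrays 8.65, 8.10 and 8.15, so that replicate 1 of each almost met. NDUFA9, an accessory subunit where the matrix and membrane arms join, went the other way: 10.31, 10.22 and 10.32 in vector+4OHT cells and 10.76, 10.84 and 10.57 in vector-4OHT cells. It fell by 0.44 ± 0.069 (adjusted p = 0.000536), the largest fall among the members. NDUFB5, of the membrane arm, was 0.16 lower with non-overlapping arrays (adjusted p = 0.0343), and lost the call in 6 of the 9 removals, with an adjusted p of 0.109 without vector-4OHT replicate 1. Among the called members the arrays overlapped in NDUFA8, NDUFB4 and NDUFS4. By part, 3 of 6 core subunits and 11 of 27 accessory subunits were higher.

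Of 8 members of complex III, which hands electrons to cytochrome c, 5 were higher and 0 lower (62.5% and 0%). The shares were 14.9% and 17.6% among all genes, and 23.3% and 25.7% among genes that were not dim. Without vector-4OHT replicate 2 or vector+4OHT replicate 3 only 2 members were higher, and without vector-4OHT replicate 3 or vector+4OHT replicate 1 only 3. CYC1, the haem-bearing cytochrome c1, read 10.50, 10.44 and 10.45 in vector+4OHT cells and 10.17, 10.11 and 10.18 in vector-4OHT cells, 0.31 higher (adjusted p = 0.000397). The core subunit UQCRC1 was 0.31 higher as well (adjusted p = 0.000425), while UQCRC2, the other core subunit, was not called (-0.11, adjusted p = 0.244). CYCS, the mobile electron carrier, read 9.42, 9.34 and 9.65 in vector+4OHT cells and 9.22, 8.96 and 9.01 in vector-4OHT cells, a rise of 0.41 (adjusted p = 0.00848) with wide groups that did not overlap. UQCRH rose by 0.42 (adjusted p = 0.0228) and lost its call without vector+4OHT replicate 3 (adjusted p = 0.088).

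In complex II only 3 of its 4 subunits were measured. SDHA, the flavoprotein that oxidises succinate, read 11.01, 10.99 and 10.94 in vector+4OHT cells and 10.84, 10.70 and 10.78 in vector-4OHT cells, 0.20 higher (adjusted p = 0.00897). The membrane anchor SDHC was 0.18 lower on its brighter probe set (adjusted p = 0.0385), a call lost in 7 of 9 removals (adjusted p = 0.127 without vector-4OHT replicate 2), and its second probe set gave -0.10 (adjusted p = 0.291). SDHD, the other anchor, was at 0.03 (adjusted p = 0.775) on 1 probe set and -0.15 (adjusted p = 0.118) on the other.

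Complex IV, which reduces oxygen, had 4 of 17 members higher, also in each of the 9 removals, and 0 lower (1 without vector+4OHT replicate 1). The 4 are 23.5%, beside 14.9% among all genes, and near the 23.3% among genes that were not dim. That 23.3% comes from a separate fit without dim genes such as COX4I2, COX6B2, COX7B2 and COX8C. With the alternative isoforms given below left out, 4 of 11 were higher (36.4%). Those isoforms include COX6A2 and COX7A1, which were not dim. COX5B, a zinc-binding subunit, read 11.53, 11.67 and 11.52 in vector+4OHT cells and 11.08, 11.08 and 11.20 in vector-4OHT cells, 0.45 ± 0.058 higher (adjusted p = 0.000117). COX7B, a small membrane subunit, read 8.99, 8.93 and 8.94 in vector+4OHT cells, against 8.68, 8.40 and 8.42 in vector-4OHT cells, also 0.45 higher (adjusted p = 0.000605). COX6B1, which faces the intermembrane space, and COX8A, the smallest membrane subunit, were 0.38 (adjusted p = 0.000731) and 0.29 (adjusted p = 0.00184) higher. Several members of complex IV did not move with them, and none of these was called. COX4I1 was at 0.03 (95% interval within the range of 0.26 either way) and COX6A1 at 0.01. COX7A2L, a supercomplex factor counted with this complex, was at 0.01.

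Complex IV has subunits with tissue-specific or alternative isoforms, and none of those isoforms was called. COX4I2, COX6A2, COX6B2, COX7A1, COX7B2 and COX8C gave 0 calls among 6 in each of the 3 comparisons, with senescence differences from -0.22 to 0.05. COX4I2, COX6B2, COX7B2 and COX8C were below the overall median of 6.75 in every group, so that a change would have been hard to see. COX7A1 held the same value, 7.46, on all 3 vector-4OHT arrays.

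Complex V had 4 of 18 members higher and 0 lower (22.2% and 0%), beside 14.9% and 17.6% among all genes. The higher share lies near the 23.3% among genes that were not dim, which comes from a separate fit that left out ATP5MGL. The 4 became 2 without vector-4OHT replicate 2 and 1 without vector-4OHT replicate 3. The peripheral stalk subunit ATP5PF was 0.27 higher (adjusted p = 0.00262) and its arrays did not overlap. ATP5F1B, the catalytic beta subunit, rose by 0.14 (adjusted p = 0.0265). Of the 3 genes that encode the same c-ring protein, ATP5MC1 was 0.15 higher (adjusted p = 0.0351), ATP5MC2 was at -0.05 (adjusted p = 0.546) and ATP5MC3 at 0.03 (adjusted p = 0.75). Over the 51 members not called in senescence, differences lay between -0.22 and 0.20, and for 43 of them the 95% interval stayed inside 0.26 either way.

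**Figure D2:**
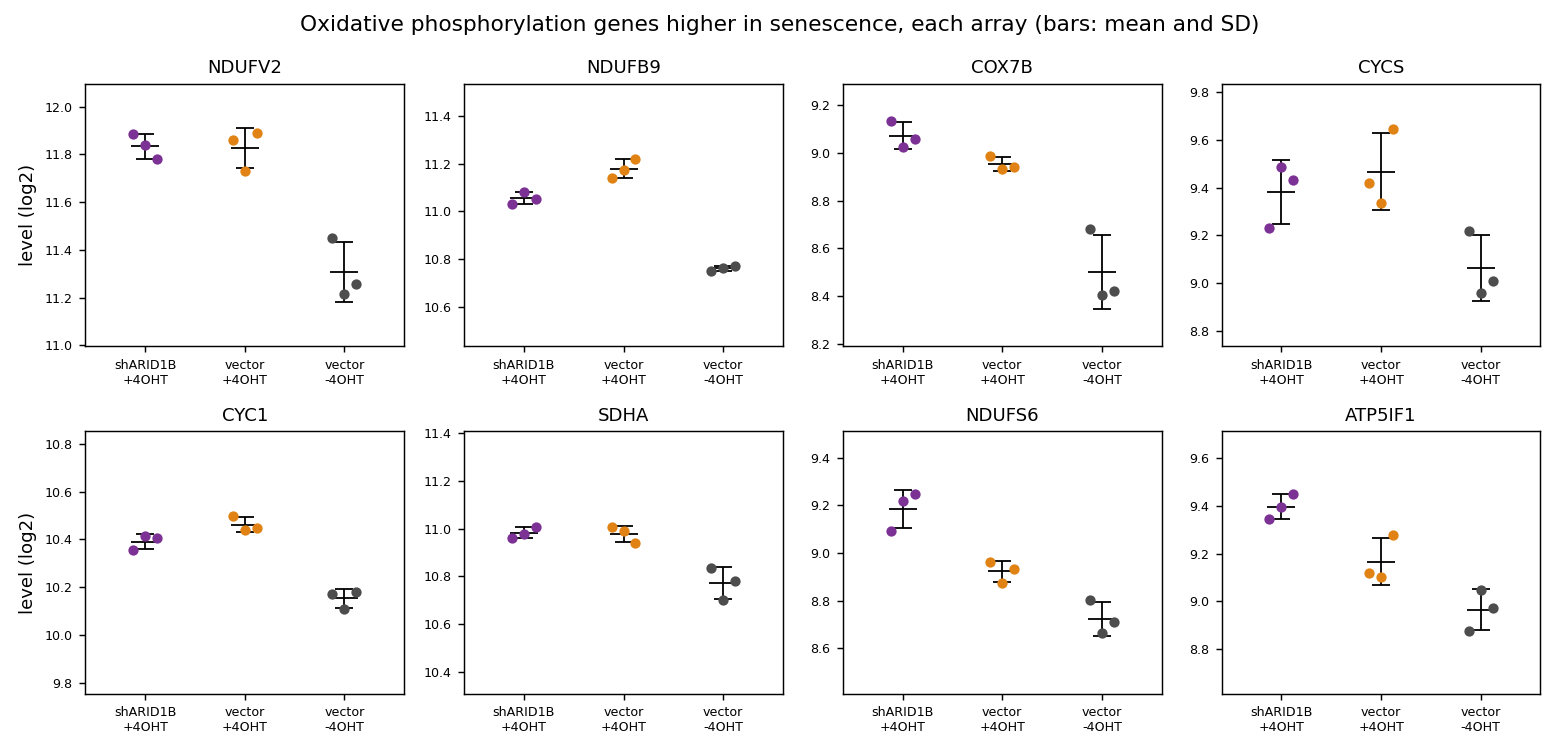
Log2 level (y axis, 1.1 units in each panel) on every array of 8 oxidative phosphorylation genes higher in senescence, by group (x axis); points are arrays, bars the mean and SD of 3. The vector+4OHT arrays lie above the vector-4OHT arrays in all 8 panels, whose genes were picked from those called higher.

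After knockdown of ARID1B, members differed both ways from vector+4OHT cells. Of the 83, 10 were higher in shARID1B+4OHT than in vector+4OHT cells and 9 lower (12% and 10.8%), beside 9.63% higher and 6.09% lower among all genes. Among genes that were not dim, 16.3% were higher and 10.5% lower, beside 12 and 9 of 76 members. These shares lie near the background. The median difference was -0.04, beside -0.02 over all genes. This comparison shares the vector+4OHT arrays with senescence, so that a high or low array there moves both, and the values of each stand side by side below. The 10 fell to 6 without vector+4OHT replicate 2, to 4 without shARID1B+4OHT replicate 2 and to 5 without shARID1B+4OHT replicate 3, and 4 kept the call in all 9 removals (NDUFA9, NDUFB5, NDUFS3 and COX6C). Of the 9 lower, 6 kept it (COX5B, COX6B1, COX8A, NDUFA11, NDUFA3 and NDUFS8), and 6 were left without shARID1B+4OHT replicate 2 or 3.

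The 3 largest falls were all in complex IV. COX6B1 read 10.90, 10.79 and 10.76 in shARID1B+4OHT cells, against 11.29, 11.44 and 11.30 in vector+4OHT cells. The difference was -0.52 ± 0.063 (adjusted p = 0.000323), or 30.4% lower. COX5B read 11.18, 11.13 and 11.15 in shARID1B+4OHT cells, against 11.53, 11.67 and 11.52 in vector+4OHT cells, a difference of -0.42 ± 0.058 (adjusted p = 0.000762). COX8A read 11.09, 11.02 and 11.07 in shARID1B+4OHT cells, against 11.54, 11.46 and 11.35 in vector+4OHT cells, a difference of -0.39 ± 0.056 (adjusted p = 0.000971). No array of one group reached the other in any of the 3 genes, which the rule for naming them required. Over all 18417 genes, the arrays stood apart in this comparison upward in 3266 and downward in 2727.

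Set against vector-4OHT cells, these 3 transcripts in knockdown cells were not called: COX6B1 differed by -0.14 (adjusted p = 0.117), COX5B by 0.03 (adjusted p = 0.716) and COX8A by -0.10 (adjusted p = 0.232). The 3 arrays of COX8A in knockdown cells nevertheless all lay below its vector-4OHT arrays, which read 11.14, 11.15 and 11.18. A missed threshold does not show that the levels were equal, and the other complex IV subunits were spread to both sides, with COX6C higher and COX7B at 0.12 (adjusted p = 0.327).

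Complex I gave 6 rises (3 without shARID1B+4OHT replicate 2) and 3 falls among 33 members (18.2% and 9.09%). These shares lie near the 16.3% and 10.5% among genes that were not dim, beside 9.63% and 6.09% among all genes. The falls were NDUFA11, a membrane accessory subunit (-0.32, adjusted p = 0.00267), NDUFA3, another accessory subunit (-0.27, adjusted p = 0.00872), and NDUFS8, an iron-sulfur protein on the way to coenzyme Q (-0.27, adjusted p = 0.00549). NDUFA11 read 8.96, 8.93 and 8.88 in shARID1B+4OHT cells, against 9.27, 9.16 and 9.30 in vector+4OHT cells. In senescence the same 3 genes had been higher by 0.26 (adjusted p = 0.00261), 0.27 (adjusted p = 0.00418) and 0.29 (adjusted p = 0.00133). The remaining falls were UQCRC1 of complex III (-0.18, adjusted p = 0.029), ATP5F1D of the ATP synthase central stalk (-0.27, adjusted p = 0.0339) and ATP5MC1 of the c ring (-0.19, adjusted p = 0.0218), and all 3 lost the call in at least 1 removal.

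The largest rise was that of NDUFA9, with 10.86, 10.86 and 10.81 in shARID1B+4OHT cells, against 10.31, 10.22 and 10.32 in vector+4OHT cells. The difference was 0.56 ± 0.069 (adjusted p = 0.000384), 1.47-fold, and against vector-4OHT cells it was 0.12 (adjusted p = 0.216). NDUFB5 read 11.33, 11.32 and 11.27 in shARID1B+4OHT cells, against 10.88, 10.86 and 10.93 in vector+4OHT cells, 0.41 higher (adjusted p = 0.000353), and it was also above vector-4OHT cells, by 0.26 (adjusted p = 0.00249). The groups of both genes did not overlap, which the rule for naming them required.

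NDUFS3, a core subunit next to the coenzyme Q site, was not called in senescence (0.03, adjusted p = 0.849). It read 11.69, 11.78 and 11.74 in shARID1B+4OHT cells, against 11.31, 11.19 and 11.28 in vector+4OHT cells, 0.48 higher (adjusted p = 0.00222). Above vector-4OHT cells it was higher by 0.51 (adjusted p = 0.000489). COX6C, a membrane subunit of complex IV, read 10.01, 10.32 and 10.12 in shARID1B+4OHT cells, against 9.77, 9.53 and 9.72 in vector+4OHT cells, 0.47 higher (adjusted p = 0.00676). The other rises, which each lost the call in at least 1 removal, were NDUFS1, the large iron-sulfur subunit (0.27, adjusted p = 0.0238), UQCRC2 (0.28, adjusted p = 0.0158), NDUFS6 (0.26, adjusted p = 0.0124), NDUFA10 (0.21, adjusted p = 0.0122), ATP5MG (0.21, adjusted p = 0.033) and the ATP synthase inhibitor ATP5IF1 (0.23, adjusted p = 0.0374). No complex II member was called, with differences from -0.02 to 0.09. NDUFV2, NDUFB9 and CYCS, high in senescence, differed by 0.01 (adjusted p = 0.96), -0.12 (adjusted p = 0.0987) and -0.08 (adjusted p = 0.622).

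**Figure D3:**
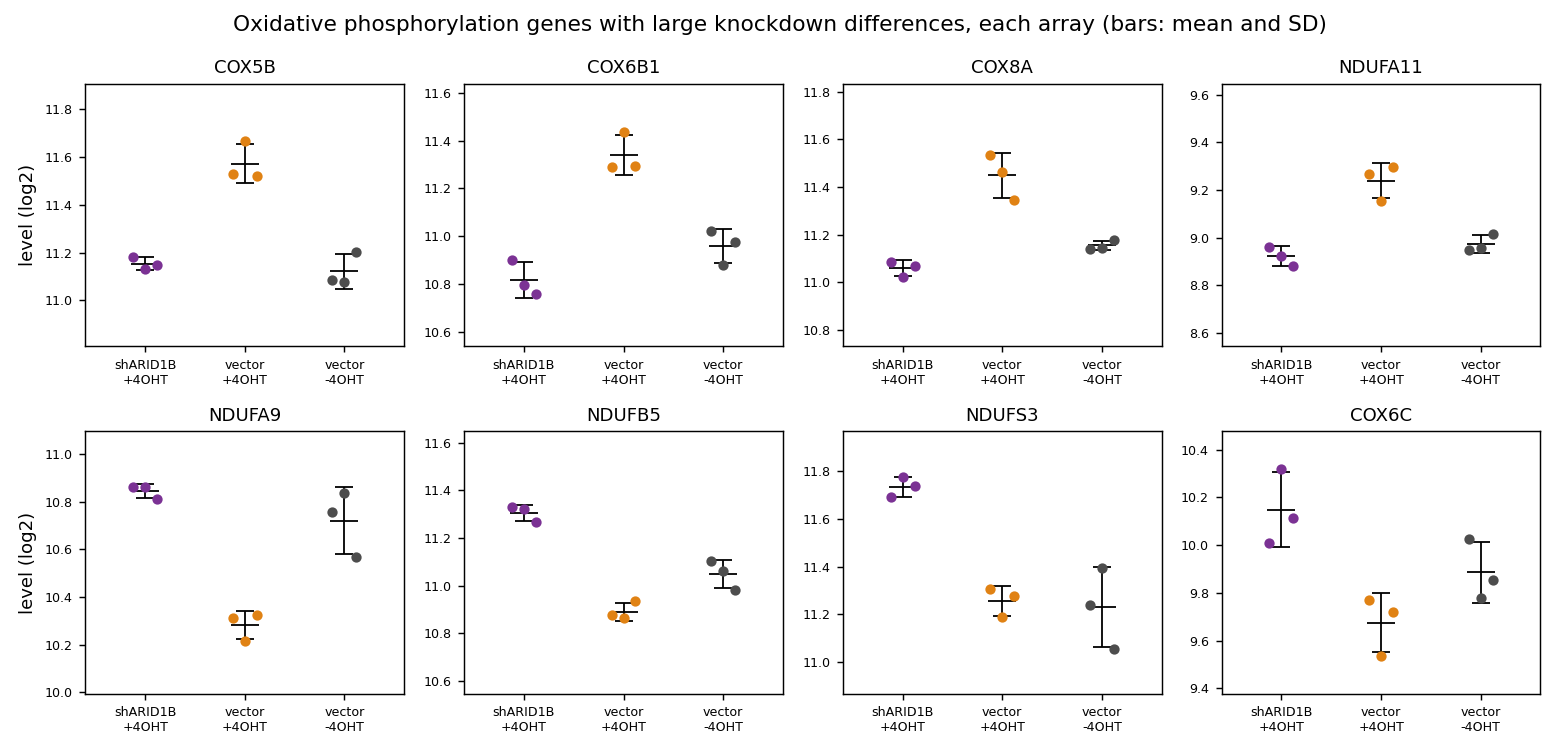
Log2 level (y axis, 1.1 units in each panel) on every array of 8 oxidative phosphorylation genes called in knockdown, by group (x axis); points are arrays, bars the mean and SD of 3. In the upper row the shARID1B+4OHT arrays lie below the vector+4OHT arrays, and in the lower row above them. These genes were picked among called members with non-overlapping arrays.

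Knockdown cells were also set against vector-4OHT cells, a comparison that shares arrays with both others. These groups differ in both the hairpin and 4OHT, whose parts cannot be told apart here. Of the 83 genes, 18 were higher and 0 lower (21.7% and 0%), beside 15.6% higher and 15.9% lower among all genes. At an unadjusted limma p under 0.05 the counts were 27 higher and 1 lower (32.5% and 1.2%), beside 18.9% higher and 21.3% lower among all genes. Among genes that were not dim, 24% were higher and 22.5% lower, beside 20 and 0 of 76 members. With array medians subtracted, 31 members were higher and 0 lower, beside 18.7% and 11.3% of all genes. The median difference was 0.05, beside -0.03 over all genes. Complex I had 9 of the 18, complex II 1, complex III 2, complex IV 1, complex V 3, and the other 2 were CYCS and the pseudogene UQCRBP1. In the 9 removals the count ran from 13 without shARID1B+4OHT replicate 3 to 21 without vector-4OHT replicate 1.

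COX7B led, with 9.13, 9.02 and 9.06 in shARID1B+4OHT cells and 8.68, 8.40 and 8.42 in vector-4OHT cells, a difference of 0.57 ± 0.073 (adjusted p = 0.000124), 1.49-fold. NDUFV2 followed at 0.53 (adjusted p = 0.000175), with 11.88, 11.84 and 11.78 in shARID1B+4OHT cells. NDUFS6, a zinc-binding accessory subunit of complex I, read 9.09, 9.22 and 9.24 in shARID1B+4OHT cells, 8.96, 8.88 and 8.93 in vector+4OHT cells and 8.80, 8.66 and 8.71 in vector-4OHT cells. It was 0.46 above vector-4OHT cells (adjusted p = 0.000128), with vector+4OHT cells between.

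ATP5IF1, which blocks ATP hydrolysis by ATP synthase, had the same order: 9.35, 9.40 and 9.45 in shARID1B+4OHT cells, 9.12, 9.10 and 9.28 in vector+4OHT cells and 8.88, 9.05 and 8.97 in vector-4OHT cells. The difference between the outer groups was 0.43 (adjusted p = 0.000423) and held in all 9 removals, whereas its senescence call was lost in 4 (adjusted p = 0.13 without vector-4OHT replicate 1) and its knockdown call in 6 (adjusted p = 0.136 without shARID1B+4OHT replicate 3). SDHA (0.21, adjusted p = 0.00873), CYC1 (0.24, adjusted p = 0.00246), NDUFB9 (0.29, adjusted p = 0.000487) and ATP5PF (0.23, adjusted p = 0.00679) also stayed above vector-4OHT cells. Of the members not yet given for this comparison, NDUFB10 (0.28, adjusted p = 0.00295), NDUFA2 (0.24, adjusted p = 0.0115) and UQCR10 (0.22, adjusted p = 0.00796) kept their calls in all 9 removals. NDUFA10 (0.14, adjusted p = 0.0447), NDUFC1 (0.18, adjusted p = 0.0487), ATP5F1C (0.23, adjusted p = 0.0129) and UQCRBP1 (0.25, adjusted p = 0.0299) did not. UQCRBP1 was also dim in every group. CYCS was above vector-4OHT cells by 0.32 (adjusted p = 0.0301), a call lost in 4 removals, with an adjusted p of 0.117 without shARID1B+4OHT replicate 2.

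**Figure D4:**
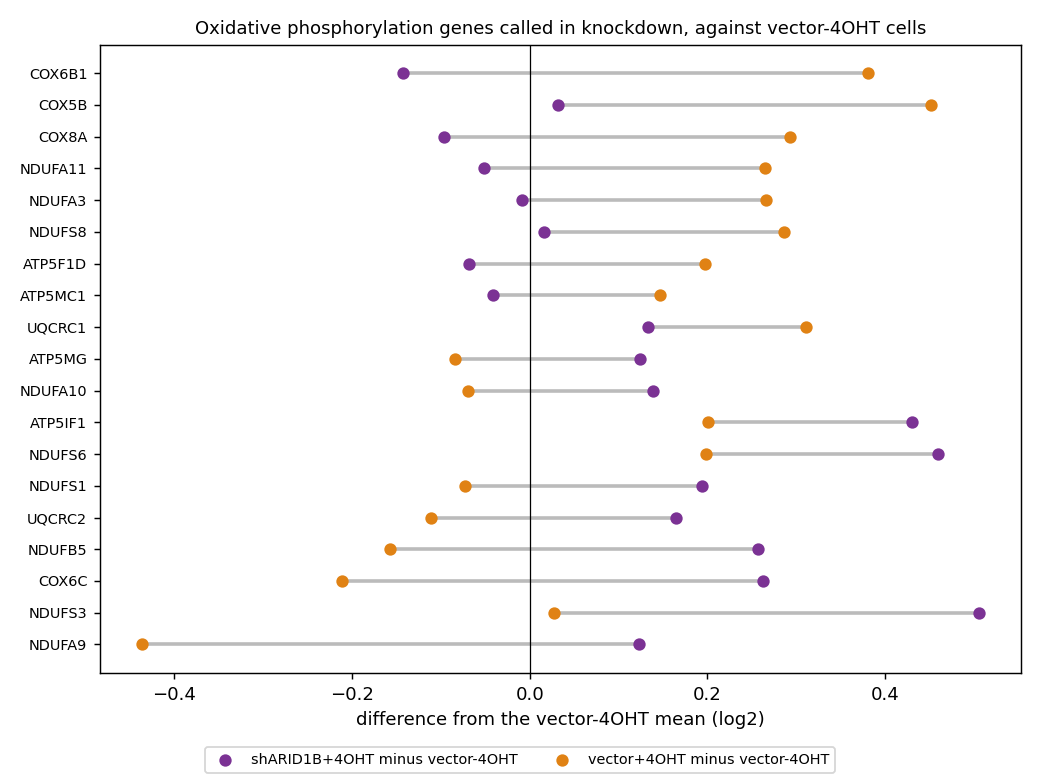
Log2 difference from the mean of vector-4OHT cells (x axis) of shARID1B+4OHT cells and of vector+4OHT cells, for the 19 oxidative phosphorylation genes called in knockdown (y axis), ordered by the knockdown difference. Both points of a gene share the vector-4OHT arrays, and the line between them is the knockdown difference, from -0.52 for COX6B1 to 0.56 for NDUFA9.

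For the related lists that follow, the shares over all genes are those already given: 14.9% higher and 17.6% lower in senescence, 9.63% and 6.09% in knockdown, and 15.6% and 15.9% against vector-4OHT cells. Among genes that were not dim, in a separate fit, they were 23.3% and 25.7%, 16.3% and 10.5%, and 24% and 22.5%.

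Assembly factors insert cofactors and put the complexes together. Of 49 assembly factors measured from a list of 56, 10 were higher and 13 lower in senescence (20.4% and 26.5%), with a median of 0.00. These shares lie near the 23.3% and 25.7% among genes that were not dim. The lower ones included NUBPL, an iron-sulfur carrier for complex I (-0.60, adjusted p = 0.000332), and TMEM242, which takes part in ATP synthase assembly (-0.52, adjusted p = 5.26e-05), and the higher ones CMC2, of complex IV (0.34, adjusted p = 0.000111). In knockdown 8 were higher and 1 lower (16.3% and 2.04%), beside 16.3% and 10.5% among genes that were not dim. The higher share is thus no larger than that background. The 8 were led by NDUFAF1 (0.56, adjusted p = 0.00132), NDUFAF5 (0.50, adjusted p = 0.00135) and ATP23 (0.35, adjusted p = 0.00202). Against vector-4OHT cells 16 were higher and 4 lower (32.7% and 8.16%). These counts depended on single arrays: the 8 fell to 4 without shARID1B+4OHT replicate 1 or 2 and to 5 without shARID1B+4OHT replicate 3, and the 10 to 6 without vector+4OHT replicate 3. The 16 fell to 8 without shARID1B+4OHT replicate 2, to 9 without vector-4OHT replicate 3 and to 10 without shARID1B+4OHT replicate 3 or vector-4OHT replicate 2. The 4 lower fell to 1 without shARID1B+4OHT replicate 3 or vector-4OHT replicate 1 and to 2 without replicate 2 of either group, and the 1 lower in knockdown to 0 without any array except vector-4OHT replicate 1 or 2.

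Coenzyme Q and haem are made by their own enzymes. Of 20 such genes measured, 5 were higher and 5 lower in senescence (25% and 25%), 2 and 1 in knockdown (10% and 5%), and 7 and 4 against vector-4OHT cells (35% and 20%). The senescence shares lie near those of genes that were not dim, and the knockdown shares near those of all genes. ALAS1, the first enzyme of haem synthesis, rose by 0.45 in senescence (adjusted p = 2e-05), and COQ10B, a coenzyme Q-binding protein, by 0.46 (adjusted p = 5.69e-05), while COQ7, a hydroxylase of coenzyme Q synthesis, fell by 0.59 (adjusted p = 5.14e-05). HCCS, which attaches haem to cytochrome c and c1, differed by -0.33 in knockdown (adjusted p = 0.00448) and was 0.52 higher in senescence (adjusted p = 6.74e-05). CPOX, a later haem enzyme, was 0.40 higher in knockdown (adjusted p = 0.000394). Without shARID1B+4OHT replicate 2 or 3, 1 of the list was higher in knockdown.

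The citric acid cycle, which feeds NADH and succinate to the chain, had 1 of 12 genes higher and 3 lower in senescence (8.33% and 25%), 2 and 0 in knockdown (16.7% and 0%), and 1 and 2 against vector-4OHT cells (8.33% and 16.7%). IDH2, the NADP-dependent isocitrate dehydrogenase, was -0.49 in senescence (adjusted p = 0.000107) and 0.25 in knockdown (adjusted p = 0.0185). The knockdown call of IDH2 was lost in 3 removals (adjusted p = 0.0812 without shARID1B+4OHT replicate 2). IDH3A, a catalytic subunit of the NAD-dependent enzyme, was 0.38 above vector-4OHT cells in knockdown cells (adjusted p = 0.00262). The knockdown count of 2 fell to 0 without vector+4OHT replicate 1 or shARID1B+4OHT replicate 2 or 3, and to 1 without any of the others except vector+4OHT replicate 3 and vector-4OHT replicate 3. The 3 lower in senescence fell to 1 without vector+4OHT replicate 1, the 1 higher to 0 without replicate 3 of either vector group or any shARID1B+4OHT array. The 2 lower against vector-4OHT cells fell to 1 without shARID1B+4OHT replicate 1 or 2 or vector-4OHT replicate 1 or 3.

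Regulators of mitochondrial gene expression had 9 of 23 higher and 0 lower in senescence (39.1% and 0%). MYC rose by 0.64 (adjusted p = 4.46e-06), TWNK, the mitochondrial DNA helicase, by 0.42 (adjusted p = 0.000553), and SLIRP, an RNA-binding protein that stabilises mitochondrial messages, by 0.46 (adjusted p = 1.95e-05). GABPA, the ETS factor of respiratory genes, was 0.50 higher (adjusted p = 0.0036) on its kept probe set, whose place in the genome was not checked. NRF1 (0.05, adjusted p = 0.679), TFAM (0.09, adjusted p = 0.432), ESRRA (0.21, adjusted p = 0.0619), PPRC1 (0.02, adjusted p = 0.832) and PPARGC1B (0.09, adjusted p = 0.476) were not called, and PPARGC1A, a coactivator of mitochondrial genes, was dim in every group.

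In knockdown 3 regulators were higher and 3 lower (13% and 13%). The mitochondrial transcription and rRNA methylation factors TFB1M (0.50, adjusted p = 0.000112) and TFB2M (0.27, adjusted p = 0.00318) were higher, and SLIRP was lower (-0.43, adjusted p = 0.000148), with 12.68 on average in shARID1B+4OHT cells and 13.11 in vector+4OHT cells. MYC was at -0.23 (adjusted p = 0.0146), a call lost in 2 removals (adjusted p = 0.0615 without shARID1B+4OHT replicate 3). GABPA was at 0.00 (adjusted p = 0.998). The 3 lower fell to 1 without shARID1B+4OHT replicate 3 or vector+4OHT replicate 2. Against vector-4OHT cells 8 were higher and 0 lower (34.8% and 0%), with TFB1M at 0.81 (adjusted p = 5e-07).

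Mitochondrial ribosomal proteins, which make the subunits encoded in mitochondrial DNA, had 23 of 73 higher and 7 lower in senescence (31.5% and 9.59%), a median of 0.07. Without vector+4OHT replicate 3 or vector-4OHT replicate 3, 15 were higher, and 3 were lower without vector-4OHT replicate 1 and 4 without replicate 2 of either group. MRPS12 (0.76, adjusted p = 5.52e-07), MRPL36 (0.71, adjusted p = 9.1e-07) and MRPL52 (0.68, adjusted p = 7.44e-06) had the smallest p-values. In knockdown 10 were higher and 3 lower (13.7% and 4.11%), and against vector-4OHT cells 29 were higher and 4 lower (39.7% and 5.48%), with a median of 0.11. The 3 lower in knockdown fell to 1 without shARID1B+4OHT replicate 1 or 3.

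Among 11 carriers, channels and uncoupling proteins, 1 was higher and 1 lower in senescence (9.09% each), 1 and 1 in knockdown (9.09% each), and 1 and 3 against vector-4OHT cells (9.09% and 27.3%). The inner-membrane carrier UCP2 was the lower one in senescence and the higher one in knockdown. Its mean was 8.35 in shARID1B+4OHT, 7.64 in vector+4OHT and 8.62 in vector-4OHT cells, which gave -0.98 in senescence (adjusted p = 1.03e-06) and 0.71 in knockdown (adjusted p = 6.71e-05). SLC25A4, an ADP/ATP carrier, was lower in knockdown (-0.65, adjusted p = 2.37e-05), and its relative SLC25A5 was at 0.05 (adjusted p = 0.615). The 1 higher in senescence was the outer-membrane channel VDAC2 (0.15, adjusted p = 0.0413). Its call was lost in 7 removals, with an adjusted p of 0.13 without vector+4OHT replicate 3, and against vector-4OHT cells in 5 (adjusted p = 0.108 without vector-4OHT replicate 3).

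A last list held 9 proteins tied to the chain but outside the naming rule, with 4 higher and 0 lower in senescence (44.4% and 0%), 2 and 1 in knockdown (22.2% and 11.1%), and 5 and 0 against vector-4OHT cells (55.6% and 0%). CHCHD10, an intermembrane-space protein, rose by 0.62 in senescence (adjusted p = 4.16e-05). COXFA4L3 (C15orf48), a relative of the complex IV subunit COXFA4 (NDUFA4), was 0.65 higher (adjusted p = 0.000114), near the overall median in level. COXFA4 itself was at -0.13 (adjusted p = 0.416) in senescence and -0.07 (adjusted p = 0.714) in knockdown, and its hypoxia-linked relative COXFA4L2 at -0.07 (adjusted p = 0.671) and -0.18 (adjusted p = 0.298). The complex I carrier protein NDUFAB1 was 0.29 higher in knockdown (adjusted p = 0.0353), a call lost in 4 removals, with an adjusted p of 0.126 without shARID1B+4OHT replicate 2. The 2 higher in knockdown fell to 0 without that array and to 1 without shARID1B+4OHT replicate 1 or 3 or vector+4OHT replicate 2, and the 1 lower, CHCHD2 (-0.24, adjusted p = 0.022), was lost without shARID1B+4OHT replicate 1 or 3 or vector+4OHT replicate 2 or 3.

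**Figure D5:**
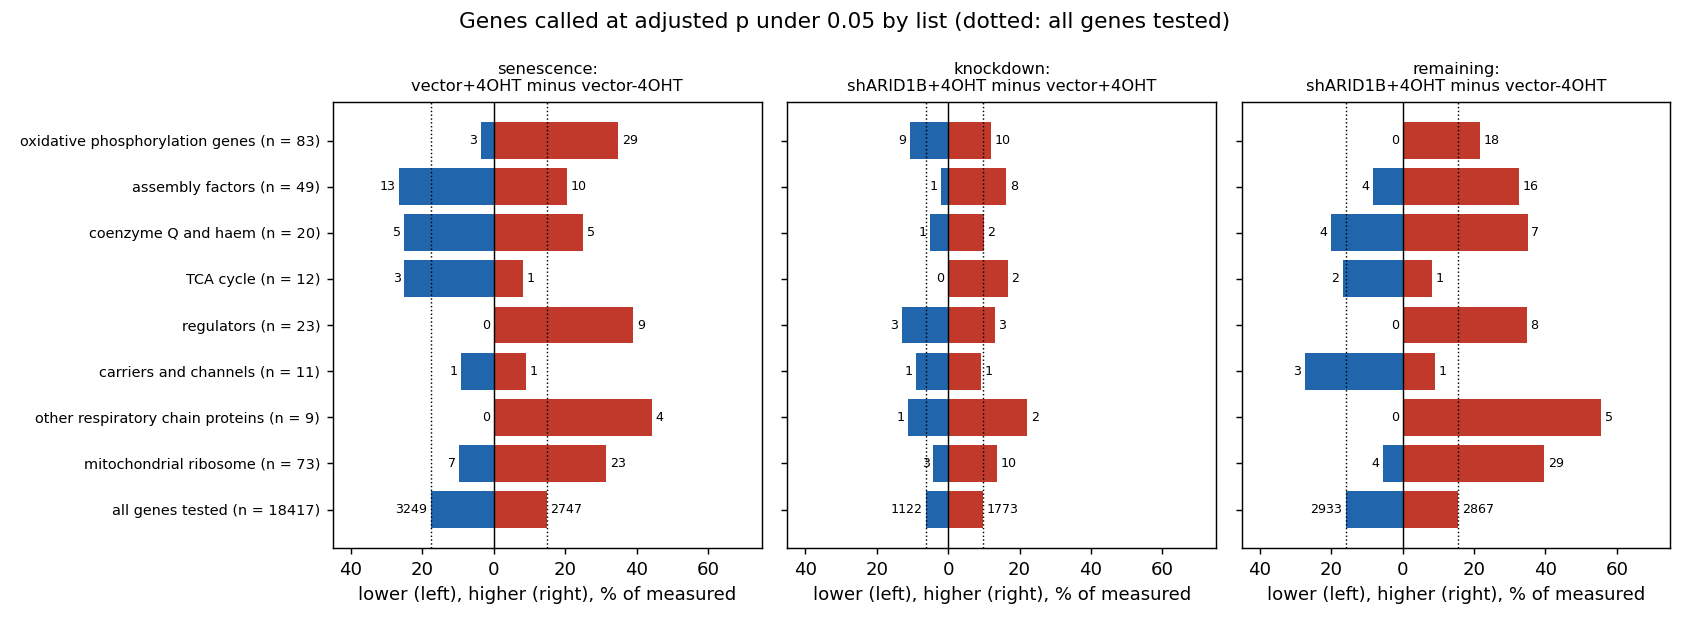
Share of genes called higher (right) and lower (left) at an adjusted p under 0.05, as a percentage of the genes measured (x axis), for the oxidative phosphorylation genes, 7 related lists and all genes tested (y axis), in the 3 comparisons; numbers are counts of genes and dotted lines the shares over all genes. In senescence the oxidative phosphorylation genes lie at 29 higher and 3 lower of 83, the assembly factors at 10 and 13 of 49.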

How the data were processed

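The authors deposited log2 values for 33297 probe sets of 9 Affymetrix whole-transcript arrays. RMA, which corrects background, normalises by quantiles and summarises probes, is named with oligo and limma in the submitters' processing notes; versions and a genome build are not given in the sources used here. The labels' extraction text names an Illumina library kit, their labelling text an Affymetrix kit, and they spell the line IRM90. Probe sets with 1 gene symbol were kept (19460), the brightest per gene (18417 genes). Symbols were taken as the annotation gives them, and where each probe set lies in the genome was not checked. A single limma fit (version 3.58.1, R 4.3.3) held all 9 arrays with group as its only term, 2-sided, Benjamini-Hochberg over all genes within each comparison. An exact test of 3 arrays against 3 cannot go below 0.1. The number of arrays limits the precision, and levels of different genes were not compared. The script was tested on simulated data.

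The members, lists and alternatives were chosen with earlier results of these data known. Named genes were ARID1B, the 5 largest rises and falls of each comparison among called members with non-overlapping arrays, the smallest p per complex, complex II, isoform sets, CYC1, CYCS, fixed regulators and up to 3 called genes per list. Other called members are named so that each can be found, and these, with genes used as contrasts, were chosen after their values were seen. Alternatives were the replicate block, a fit of the 6 arrays compared, removal of dim genes (not above the overall median, 6.75, on 3 or more arrays), other probe set choices, array medians subtracted, an intensity trend, the methods' test, a difference of 0.26 or more and each array left out. Promoter sequences are RefSeq's (GRCh38.p14), searched with Python 3.11.15; figures used matplotlib 3.10.9.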

Additional observations from a re-analysis of the deposited data

How the results depend on the processing

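No named gene's called difference changed sign under any alternative run, but subtracting array medians turned the small median difference over all genes from -0.01 to 0.02 in senescence, -0.02 to 0.01 in knockdown and -0.03 to 0.03 against vector-4OHT cells, and the senescence shares over all genes to 16.4% higher and 14.4% lower. Senescence gave 29 members higher and 3 lower. With only the 6 arrays compared these were 19 and 1, under the methods' test after adjustment 16 and 1, and with a difference of 0.26 or more also 16 and 1; with array medians subtracted 1 was lower. Leaving out 1 array gave 19 to 28 higher and 1 to 4 lower. Knockdown gave 10 higher and 9 lower: 5 higher under the methods' test after adjustment, 17 lower under it before adjustment, and 4 to 11 higher without 1 array. Against vector-4OHT cells, 18 higher became 31 with array medians subtracted and 8 with a difference of 0.26 or more, and 0 lower became 1 under the methods' test before adjustment. Apart from the subtraction of medians and the difference asked for, the cause was not tested. Arrays with the same replicate number did not deviate together: their correlations ran from -0.26 to 0.32, with 1 of 9 over 0.1, so the numbers were not taken as pairs. With the replicate block the counts were 27 higher and 2 lower in senescence, 9 and 8 in knockdown, and 18 and 0 against vector-4OHT cells. Counting subunit genes alone, an alternative chosen after seeing the data, gave 29 and 3, 10 and 9, and 17 and 0. Signal over background limits COX4I2, COX6B2, COX7B2, COX8C, ATP5MGL, NDUFV1-DT and UQCRBP1, which were dim in every group. UQCRBP1 is among the 18 higher against vector-4OHT cells, and the removal of dim genes took it out.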

Other observations

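Probe sets shared with other genes were kept out of the counts and are given as values. The one named for NDUFC2 and its read-through with KCTD14 was 0.27 higher in vector+4OHT than in vector-4OHT cells (limma adjusted p = 0.00463) and differed by -0.30 between shARID1B+4OHT and vector+4OHT cells (adjusted p = 0.00893). The one shared by UQCRH, UQCRHL and GNA13 was 0.73 higher in senescence (adjusted p = 0.000439), beside 0.42 for the probe set of UQCRH alone. Those shared by NDUFS5 and by ATP5F1E with other genes were not called in senescence (0.08, adjusted p = 0.301, and 0.03, adjusted p = 0.736) or in knockdown (0.06, adjusted p = 0.511, and 0.00, adjusted p = 0.989). NDUFB4 had 2 probe sets with identical values on every array, and the second probe set of NDUFS4 was dim at a mean of 4.72.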
